A study of Mus musculus with 4 samples.

Results

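The promyelocyte-like barcodes were those that carried both Elane, the gene of neutrophil elastase, and Mpo, the gene of myeloperoxidase, at 10 or more UMIs per 10000, together with fewer than 100 per 10000 of Ngp, a gene of later granulocytes, and fewer than 50 per 10000 each of Col1a1 and Col2a1. A UMI is a molecular identifier that stands for 1 captured transcript. Barcodes also needed at least 1600 detected genes and at most 10% mitochondrial UMIs. The rule found 350 barcodes among the 14181 of the gene matrix (2.47%), or 4.24% of the 8256 that passed the limits on genes and mitochondrial UMIs (exact binomial 95% interval 3.81 to 4.70%). The members were thus chosen by the measured values of Elane, Mpo, Ngp, Col1a1 and Col2a1, which are given below as a description only.

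The cells came from the proximal and distal tibia, both tibiae pooled, of 1 male mouse at postnatal day 6. The mouse carried the alleles Col10a1Cre, Rosa26-Tdtomato, Irx3 +/ΔHC and Irx5 +/-, and was called a heterozygous control. The study uses ΔHC for alleles inactivated by Col10a1Cre in hypertrophic chondrocytes. Col10a1Cre switches on the tdTomato reporter in these cells and their descendants, and all cells described here came from this mouse. Cells with and without the reporter were released by enzyme digestion and run on the 10X Genomics platform as 1 library, sequenced in 4 entries that were counted together. Because 1 library of 1 mouse allows no comparison of replicates, the values below carry no tests. All intervals are exact 95% intervals and cover counting error only.

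Promyelocytes are the dividing precursors of neutrophils in bone marrow. They fill the azurophil granules, the first granules that a neutrophil makes, with serine proteases, myeloperoxidase and the proteoglycan serglycin. Myelocytes, the next stage, switch to the specific granules, which hold lactoferrin, lipocalin-2 and cathelicidin. Granulocyte and monocyte precursors share early steps, with IRF8 and KLF4 acting on the monocyte side and GFI1 and C/EBPε on the neutrophil side.

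The 4 genes that mark these barcodes encode granule enzymes. Prtn3 (proteinase 3) and Elane are adjacent on chromosome 10, at chr10:79874476-79883174 and chr10:79886247-79888215 of GRCm38. Mpo lies at chr11:87793581-87804413, and Ctsg (cathepsin G) at chr14:56099881-56102574 on the minus strand. The rule itself required Elane and Mpo to be high in the same barcodes, and Prtn3 and Ctsg were high there too. For this reason the 300 bases around their start sites, 250 before and 50 after, are shown. RefSeq starts can differ from the GENCODE gene spans given above, and the RefSeq starts of Prtn3, Elane and Mpo lie inside their spans. They were read from RefSeq on GRCm38.p6 at chr10:79879417-79879716 (plus strand), chr10:79886062-79886361 (plus strand), chr11:87793534-87793833 (plus strand) and chr14:56102525-56102824 (minus strand). Capitals mark GAGGAAG, a short string like the binding motif of PU.1, the myeloid transcription factor encoded by Spi1.
Prtn3: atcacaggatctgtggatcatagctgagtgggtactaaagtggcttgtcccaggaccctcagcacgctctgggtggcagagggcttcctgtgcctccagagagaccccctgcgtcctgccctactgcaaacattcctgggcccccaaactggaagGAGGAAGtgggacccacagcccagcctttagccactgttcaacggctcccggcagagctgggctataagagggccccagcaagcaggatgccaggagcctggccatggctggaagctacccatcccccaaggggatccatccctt
Elane: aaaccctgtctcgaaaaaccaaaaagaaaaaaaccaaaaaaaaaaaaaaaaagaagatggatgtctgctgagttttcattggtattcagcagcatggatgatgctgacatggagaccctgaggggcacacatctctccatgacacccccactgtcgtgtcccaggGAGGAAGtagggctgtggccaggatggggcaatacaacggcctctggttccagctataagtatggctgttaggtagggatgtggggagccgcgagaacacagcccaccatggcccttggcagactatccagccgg
Mpo: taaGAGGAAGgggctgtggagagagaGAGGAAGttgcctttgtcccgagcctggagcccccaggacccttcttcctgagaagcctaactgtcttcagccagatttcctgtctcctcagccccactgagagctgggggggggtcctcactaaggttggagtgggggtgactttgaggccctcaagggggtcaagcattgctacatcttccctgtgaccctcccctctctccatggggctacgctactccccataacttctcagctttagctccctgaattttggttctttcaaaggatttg
Ctsg: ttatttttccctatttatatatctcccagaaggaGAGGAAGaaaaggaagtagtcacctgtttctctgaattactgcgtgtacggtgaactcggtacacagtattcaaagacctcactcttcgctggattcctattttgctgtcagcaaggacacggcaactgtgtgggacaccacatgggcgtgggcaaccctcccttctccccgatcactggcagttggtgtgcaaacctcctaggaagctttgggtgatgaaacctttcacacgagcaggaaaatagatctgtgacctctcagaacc

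GAGGAAG was present in all 4 windows on the strand of the gene, at positions 156, 166, 4 and 27, and 35 in the order printed, counted from 1 at the 5′ end. On either strand it was present in 13.6% of 32851 RefSeq promoter windows of the same length. This string was settled on after the 4 windows had been looked at. The other strings searched on both strands were TTGCNNAA (C/EBP-like, in 10.8% of all windows), TGTGGT (RUNX-like, 16.8%), AACNG (MYB-like, 80.3%) and AAATCA (GFI1-like, 14%). TTGCNNAA and AAATCA were in none of the 4 windows, TGTGGT was in that of Ctsg, and AACNG was in all 4. Of the same windows of 5 further genes, GAGGAAG was not in those of Ms4a3, which was high in the same barcodes, or Camp, Ltf and Ngp, and was on the reverse strand in that of Lcn2. TTGCNNAA was in those of Ms4a3, Lcn2, Ltf and Ngp. A match is a description of letters and not of a site in use.

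Each of the 350 barcodes held between 3554 and 41662 UMIs, the median being 16509.5, and together they held 6242604. The median number of genes was 3252.5. Their median share of mitochondrial UMIs was 4.86%. Of the 8256 barcodes kept, 423 reached the limit of Elane, 372 of these also that of Mpo, 359 of these lay under the limit of Ngp, and 350 under those of the collagens. A further 51 barcodes had Elane without enough Mpo, and 95 had Mpo without enough Elane. The doublet caller Scrublet marked 11 of the 350 (3.14%), against 588 of all 14181 barcodes, and the marked barcodes were kept.

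**Figure D1:**
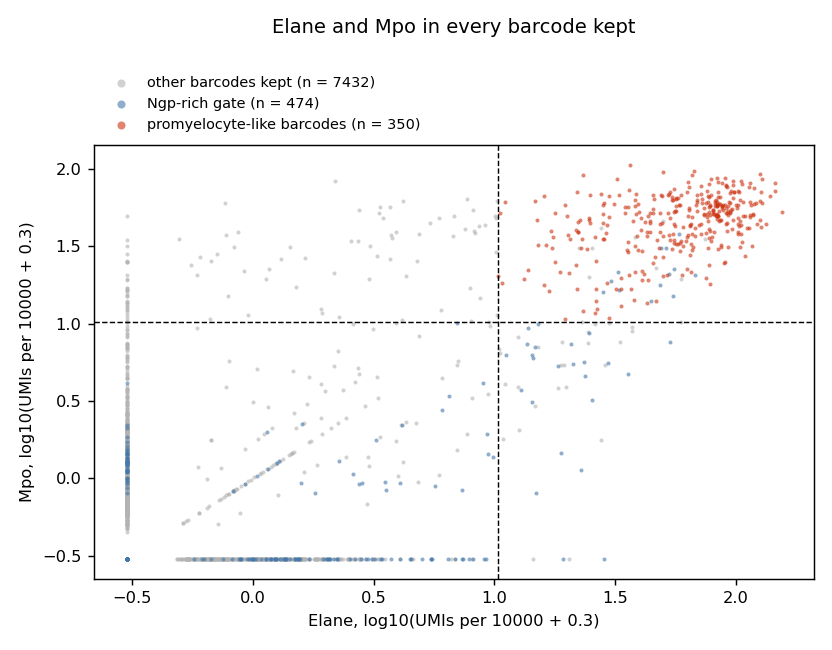
Elane (x axis) against Mpo (y axis) in each of the 8256 barcodes kept, both as log10 of UMIs per 10000 plus 0.3. Each point is a barcode, dashed lines are the limits of 10 per 10000, and the 350 promyelocyte-like barcodes lie in the upper right corner, with 13 barcodes that Ngp and 9 that a collagen kept out of the rule.

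Just inside the limit of Elane, 4 barcodes at 10 to 12 per 10000 had a median of 47.3 per 10000 of Prtn3, and 9 barcodes just outside it, at 8 to under 10, had 25.1. The 6 barcodes just inside the limit of Ngp, at 80 to under 100 per 10000, had a median of 272.5 per 10000 of Camp, and the 8 just outside, at 100 to 120, had 367.4. Barcodes lay close to the limits on both sides.

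The markers Prtn3 and Ctsg, which the rule did not use, were found in nearly all of the barcodes. Whether they set promyelocytes apart from earlier precursors was not tested. Prtn3 was present in all 350 barcodes, from 18.4 to 209.7 UMIs per 10000 with a median of 88.0. Ctsg was present in 349, up to 90.1 with a median of 23.4, and Ms4a3, a gene of granulocyte and monocyte precursors, in 348, up to 30.8 with a median of 11.7. For Elane, which the rule used, the median was 64.8 and the highest value 154.4, and for Mpo 49.5 and 106.0.

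Levels were compared with 5 other sets of barcodes, under the same limits on genes and mitochondrial UMIs, which may overlap in part. An Ngp-rich gate (Ngp at least 100 per 10000 with Retnlg, a gene of late neutrophils, under 10 and the collagens under 50) held 474 barcodes with a median of 11726 UMIs. A Retnlg gate (at least 10 per 10000) held 127 with a median of 9784 UMIs, and 25.2% of these were marked by Scrublet. A gate for Ly6c2 (at least 5 per 10000) and Ccr2 (at least 1), genes of inflammatory monocytes, held 253 with a median of 9192 UMIs. A Col2a1 gate of cartilage (at least 50) held 2171, with a median of 22532 UMIs, and an Hba-a1 gate of red cell precursors (at least 500) held 389, with 11747. The median mitochondrial share was 2.52% in the Ngp-rich gate and 4.04% in the Ly6c2/Ccr2 gate. Its part in the results, and that of depth, was not tested. Levels are UMIs summed over a gate per 1000000 UMIs of that gate (CPM). Log2 ratios were taken after adding 1 CPM, and fold values without it.

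Among the azurophil granule genes, Prtn3 and Ctsg stood above the Ngp-rich, Retnlg and Ly6c2/Ccr2 gates. Prtn3 was at 8638 CPM (8565 to 8711) in the promyelocyte-like barcodes, 522.5 CPM in the Ngp-rich gate and 738.4 CPM in the Ly6c2/Ccr2 gate. Ctsg was at 2500 CPM (2461 to 2540), against 31.4 and 81.6 CPM. This is 79.5-fold (69.0 to 92.1) above the Ngp-rich gate. Among genes with at least 50 CPM and 100 UMIs, Ctsg had the highest log2 ratio. In cartilage barcodes, which should lack both genes, Prtn3 was found in 3.59% and Ctsg in 1.498% after each barcode was thinned to 5000 UMIs, against 100% and 96.7% here.

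The smaller azurophil genes followed. Ms4a3 was at 1092 CPM (1066 to 1118) against 243.2 CPM in the Ngp-rich gate and 8.99 CPM in the Ly6c2/Ccr2 gate. Prss57, a further serine protease of these granules, was at 224.4 CPM against 43.0 and 1.67 CPM. Nkg7, a granule membrane protein, was at 293.1 CPM against 31.8 and 3.33 CPM. Cst7, an inhibitor of the cathepsins that activate granule proteases, was at 170.0 CPM against 11.2 and 8.66 CPM. All 4 were above both gates beyond counting error.

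Of the 13 azurophil genes, Elane and Mpo included, 10 were at least 2-fold higher than in the Ngp-rich gate and 1 was lower, with a median log2 ratio of 3.17. Both Elane and Mpo were among the 10, and their choice by the rule bears on the count and the median. Of the 7121 genes that reached 10 CPM here or in that gate, 20.6% were at least 2-fold higher and 9.54% lower, with a median of 0.19. The lower gene was Lyz2 (lysozyme), at 417.3 CPM against 5427 CPM in the Ngp-rich gate and 9637 CPM in the Ly6c2/Ccr2 gate. Serpinb1a, an inhibitor of the neutrophil proteases, was at 473.2 CPM against 715.5 CPM, and the granule membrane gene Cd63 at 553.0 against 421.5 CPM. Srgn (serglycin, the core on which granule proteases are packed) was at 2950 CPM, 9.51-fold (9.08 to 9.98) above the Ngp-rich gate and 1.77-fold (1.71 to 1.82) above the Ly6c2/Ccr2 gate.

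Genes of the specific granule were lower than in the Ngp-rich gate, and none of the 13 was at least 2-fold higher. Ngp, used by the rule of both sets, was among the 11 that were at least 2-fold lower, and the median log2 ratio of the list was -2.88. Among all genes compared, 9.54% were lower and 20.6% higher. Ltf (lactoferrin) was at 31.2 CPM (27.0 to 35.9) against 5381 CPM, 172.3-fold lower. Lcn2 (lipocalin-2) was at 156.3 CPM against 8576 CPM, and Chil3, a chitinase-like protein, at 69.5 against 3164 CPM. Cd177, a surface protein of neutrophils, was at 4.17 CPM against 418.4 CPM. Hp (haptoglobin) and Cyba, a subunit of the NADPH oxidase, were 1.97-fold and 1.95-fold lower, short of 2-fold.

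Camp, the gene of cathelicidin, was the most abundant gene of the list. It was at 6797 CPM (6732 to 6862), 7.36-fold below the Ngp-rich gate but 60.0-fold (53.9 to 67.0) above the Ly6c2/Ccr2 gate at 113.2 CPM. The calgranulins S100a8 and S100a9, small calcium-binding proteins of myeloid cells, were at 17107 and 18183 CPM against 75323 and 103290 CPM in the Ngp-rich gate. Stfa1, a stefin that inhibits cysteine proteases, was at 12661 against 40629 CPM. Its close copies Stfa2, Stfa3 and BC100530 may share reads with it, so values of single stefins are uncertain. Protease inhibitor genes summed to 14068.5 CPM, with Stfa1 highest, and against the Ngp-rich gate 1 of 9 (Cst7) was at least 2-fold higher and 3 (Stfa1, Stfa2 and Stfa3) were lower (median -0.60). With the calgranulins, 7 of 11 genes of the late neutrophil list were at least 2-fold lower than in the Ngp-rich gate and 1, the lectin gene Clec4d, was higher (median log2 ratio -2.23). For both lists, the shares over all genes were 20.6% higher and 9.54% lower.

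Camp was spread unevenly over the 350 barcodes. It was under 1 per 10000 in 139, from 1 to under 10 in 55, from 10 to under 100 in 71, and at least 100 in 85, with a highest value of 671.7. S100a9 ran from 0 to 1052 per 10000 with a median of 97.1. The quartiles of Prtn3 were 62.6 and 113.0 per 10000, and those of Camp 0.333 and 94.9.

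**Figure D2:**
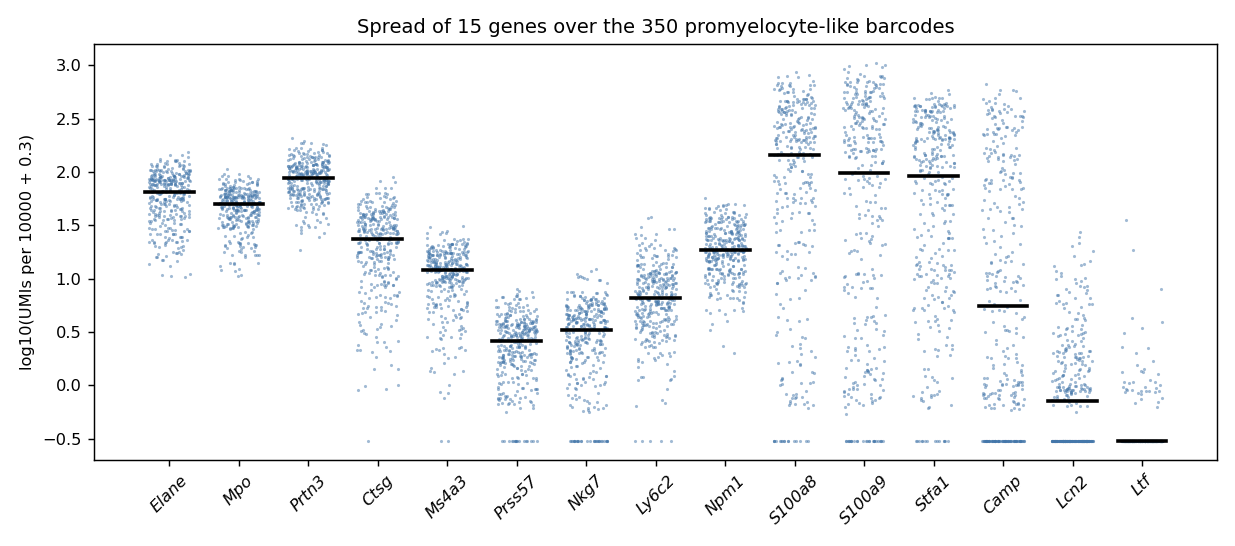
UMIs per 10000 of 15 genes (y axis, log10 after adding 0.3) in each of the 350 promyelocyte-like barcodes, with 1 point per barcode and a bar at the median. Prtn3 lies in a narrow band around its median of 88.0, whereas Camp runs from 0 to 671.7.

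Free RNA in the droplets can give UMIs of abundant genes to any cell. The 350 barcodes held 42428 UMIs of Camp and 6051 of Ngp, or 7.01 Camp UMIs per Ngp UMI. The ratio was 1.5 in the Ngp-rich gate, 1.69 in the Col2a1 gate and 1.26 in the Hba-a1 gate. The limit on Ngp raises this ratio in the chosen barcodes. Lcn2 was not used by the rule, but was also higher in the barcodes with more Ngp (below), so that limit may bear on its ratio too. There were 43.5 Camp UMIs per Lcn2 UMI here, 5.83 in the Ngp-rich gate and 4.28 in the Col2a1 gate. After thinning to 5000 UMIs, Camp was found in 61.9% of 349 barcodes (56.6 to 67.0%) and in 11.9% of 2161 cartilage barcodes, while Ltf was found in 5.59% and 3.57%. The part of free RNA in these values was not tested.

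The barcodes were then divided by Ngp into 143 without a UMI of it, 116 with some but under 10 per 10000, and 91 with 10 to under 100 per 10000. Median UMIs were 17604, 16466 and 15383 over these bins, and Scrublet marked 2, 6 and 3 barcodes. These bins are ordered by a measured gene, not by time. From the first to the last bin, 3.66% of 7071 genes were at least 2-fold higher and 12.2% lower, with a median log2 ratio of -0.31.

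Camp was at 383.9 CPM in the barcodes without Ngp, 3419 in the middle bin and 23302 in the last, 60.7-fold (57.0 to 64.7) above the first. S100a9 was at 2841, 14898 and 50681 CPM and Lcn2 at 38.6, 67.9 and 498.0 CPM. Ltf was at 3.40 and 3.28 CPM in the first 2 bins and was at 122.3 CPM in the last. A few barcodes carried Ltf, since 10 of the 350 held 79.5% of its UMIs and 28 of the 91 in the last bin had any. Camp UMIs per Lcn2 UMI numbered 9.95, 50.3 and 46.8 over the bins. In the barcodes without Ngp, Camp was found in 28.5% after thinning to 5000 UMIs, against 11.9% of cartilage barcodes, and the part of free RNA in it was not tested. Of 13 specific granule genes, Ngp itself included, 12 were at least 2-fold higher in the last bin and none was lower, beside 3.66% and 12.2% of all genes.

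Of 13 azurophil genes, 1 was at least 2-fold higher and 2 lower in the last bin than in the first, with a median log2 ratio of -0.27. Over all genes compared, 3.66% were higher and 12.2% lower, and the list median was near their median of -0.31. Prtn3 was at 8941, 9096 and 7423 CPM and Ms4a3 at 1063, 1193 and 995.9 CPM. Ctsg was at 3250, 2624 and 967.2 CPM, 3.36-fold lower in the last bin than in the first. Ctsc (cathepsin C, the enzyme that activates the granule serine proteases) was at 185.3, 98.4 and 42.4 CPM. Elane was at 5624, 6669 and 5935 CPM and Mpo at 5258, 4929 and 3343 CPM, but the rule kept both at 10 or more per 10000 in every barcode, which bears on their course over the bins.

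**Figure D3:**
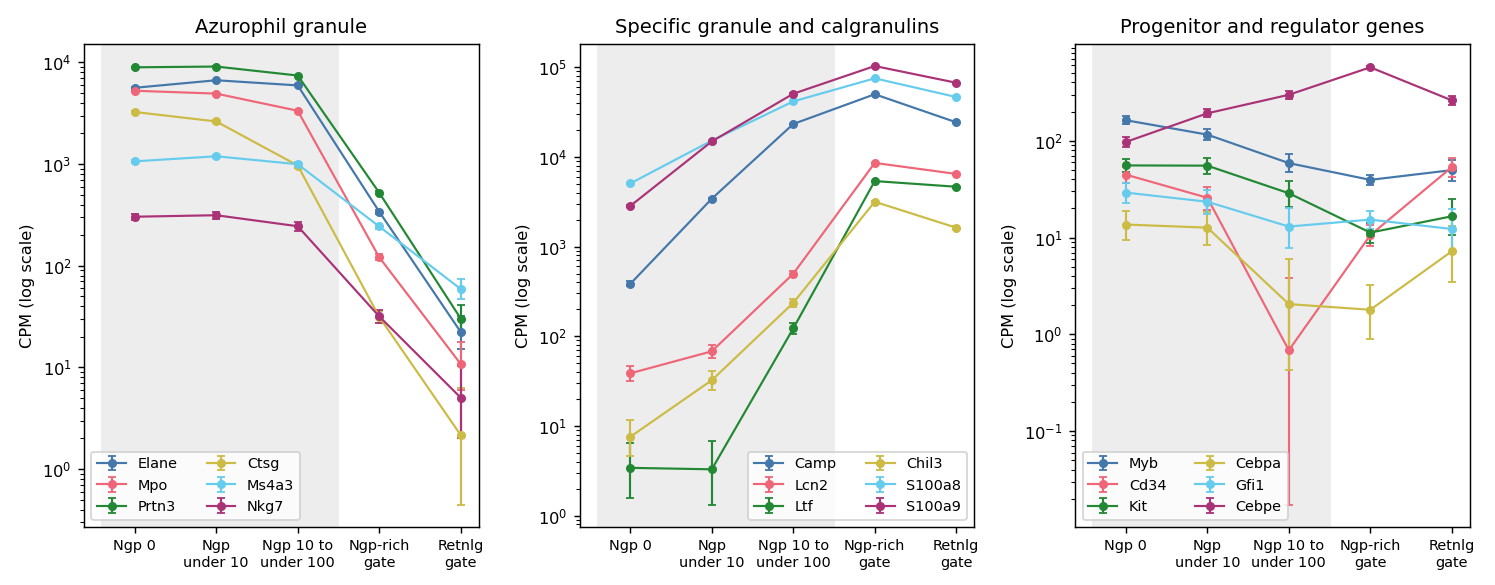
CPM on a log scale (y axis) in the 3 Ngp bins of the promyelocyte-like barcodes (grey area) and in the Ngp-rich and Retnlg gates (x axis), with exact Poisson 95% intervals as bars, drawn down to 0.01 CPM at most. From left to right in the grey area Ctsg is at 3250 to 967.2 CPM and Camp at 383.9 to 23302 CPM, while Prtn3 lies between 7423 and 9096 CPM. The rule bears on Elane and Mpo in the grey area.

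Of 8 progenitor genes compared, 6 were at least 2-fold lower in the last bin than in the first and none was higher. The shares over all genes were 12.2% lower and 3.66% higher. Cd34, a surface protein of stem and progenitor cells, had 118 UMIs in the first bin (44.6 CPM), 55 in the second (25.8 CPM) and 1 in the last. Myb, a transcription factor of blood progenitors, was at 163.0, 115.7 and 58.7 CPM, and Kit, the receptor of stem cell factor, at 55.6, 55.3 and 28.7 CPM. Irf8 was at 51.1, 25.8 and 2.05 CPM. Cebpe, the gene of C/EBPε, went the other way, at 97.2, 192.1 and 298.5 CPM, and was at 574.0 CPM in the Ngp-rich gate. Gfi1, also of the neutrophil side, was lower in the last bin, at 29.1, 23.4 and 12.98 CPM. In the neutrophil branch list, 2 of 6 genes, Cebpe among them, were at least 2-fold higher in the last bin. Only Gfi1 was at least 2-fold lower, and the list median log2 ratio was 0.69. Of 11 monocyte branch genes, 8 were lower in the last bin and none was higher. The 4 endothelial genes (Cdh5, Pecam1, Kdr and Emcn) summed to 65.1, 8.90 and 4.78 CPM over the bins. All 3 of them that could be compared were at least 2-fold lower in the last bin (median log2 ratio -3.63), and Pecam1, the most abundant, was at 23.5, 4.68 and 3.42 CPM. In 336 barcodes, leaving out an Irf8-rich set described below, Kdr had 31 UMIs in 7 barcodes and Cdh5 31 in 8. Emcn had 58 UMIs in 11 barcodes and Pecam1 68 in 35. Red cell genes summed to 3879, 2786 and 6221 CPM over the bins (median log2 ratio of the last to the first 0.74), and 10 of the 350 barcodes held 91.3% of the UMIs of Hbb-bs, the most abundant of them. Skeletal genes summed to 744.0, 1510 and 1084 CPM (median 0.46), and dendritic cell genes to 76.8, 42.2 and 15.7 CPM (median -2.18). The part of other cells in the differences between bins was not tested.

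Against the Ngp-rich gate, 6 of 8 progenitor genes were at least 2-fold higher and none was lower, with a median log2 ratio of 1.46. They were Kit, Cd34, Myb, Myc, Cd93 and Cdk6, and Cdk6, a kinase of the early cell cycle, was at 241.2 CPM against 45.9 CPM. After thinning, Kit was found in 21.5% of the promyelocyte-like barcodes, 4.95% of the Ngp-rich gate and 0.651% of cartilage. Of 14 myeloid transcription factor genes compared, 4 were higher (Cebpa, Irf5, Myb and Zeb2) and 2 lower (Cebpe and Nfe2), beside 20.6% and 9.54% of all genes, with a median log2 ratio of 0.05. Of 6 neutrophil branch genes, Gstm1, a glutathione transferase, was higher (263.8 against 24.6 CPM) and Cebpe, Fcnb and Trem3 were lower (median -0.63). Of 11 monocyte branch genes, Ccr2, F13a1, Ms4a6c and Ly86 were higher and Ctss and Fn1 lower (median 0.76). Spi1 was at 244.1 CPM, against 357.0 CPM in the Ngp-rich gate and 256.5 CPM in the Ly6c2/Ccr2 gate. Among 11 cytokine receptor genes, 2 were at least 2-fold higher (Kit and Ifngr1) and 1 was lower (Cxcr2), close to the 20.6% and 9.54% of all genes (median -0.05). Set against all other barcodes kept, 3 of 10 progenitor genes were at least 2-fold higher and 5 lower, with a median log2 ratio of -0.99. Over all 8711 genes tested there, 5.83% were higher and 28% lower.

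The genes for making protein were higher than in the Ngp-rich gate. All 19 genes of ribosome assembly were at least 2-fold higher, with a median log2 ratio of 2.03. The shares over all genes were 20.6% higher and 9.54% lower, with a median of 0.19. Npm1 (nucleophosmin) was at 2208 CPM (2171 to 2245) against 359.1 CPM, and Ncl (nucleolin) at 806.1 against 282.2 CPM. Gar1, a protein of the small nucleolar particles that modify ribosomal RNA, was at 103.3 against 8.96 CPM. Of 21 genes of protein folding and export in the endoplasmic reticulum, 17 were at least 2-fold higher and none was lower, with a median log2 ratio of 1.62. The chaperone gene Calr (calreticulin) was at 973.0 CPM against 109.6 CPM, 8.87-fold (8.19 to 9.62) higher. Sdf2l1, also of the endoplasmic reticulum, was at 156.2 against 12.4 CPM, and Sec61b, a part of its import channel, at 1198 against 247.8 CPM.

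Against all other barcodes kept, none of the 19 ribosome assembly genes and 1 of the 21 secretory genes was at least 2-fold higher, beside 5.83% of 8711 genes tested, and 28% of these were lower. Npm1 was at 1560 CPM in these 7906 barcodes and Calr at 727.1 CPM. Within the promyelocyte-like barcodes, Npm1 was at 2805, 2246 and 1074 CPM from the first to the last Ngp bin, and Calr at 1256, 979.5 and 452.9 CPM. Of the 19 ribosome assembly genes, 14 were at least 2-fold lower in the last bin and none was higher. Of the 21 secretory genes, 5 were at least 2-fold lower and none was higher, with a median log2 ratio of -0.79. Between these bins, 12.2% of all genes were lower and 3.66% higher, with a median of -0.31.

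With the genes of the rule left out, the 10 genes with the largest log2 ratios over the Ngp-rich gate included Srm, C1qbp and Phgdh. Srm (spermidine synthase) was at 133.0 CPM against 6.52 CPM, 20.4-fold (14.9 to 28.8) higher, and Phgdh, the first enzyme of serine synthesis, at 216.4 against 16.6 CPM. C1qbp, a mitochondrial matrix protein, was at 293.8 against 20.7 CPM. On the lower side, the interferon-induced gene Ifitm6 was at 9.93 against 922.6 CPM, and Inhba, a subunit of activins, at 3.04 against 135.4 CPM.

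Mitosis genes leaned lower than in the Ngp-rich gate, and DNA replication genes did not. Of 20 mitosis genes, 5 were at least 2-fold lower and none was higher, with a median log2 ratio of -0.62. Mki67, the gene of the Ki-67 protein, was at 113.7 CPM against 372.6 CPM, and Top2a, topoisomerase II alpha, at 220.3 against 424.2 CPM. Of 20 DNA replication genes, 3 (Gins2, Ung and Dut) were higher and 2 (Ccne1 and Ccne2) lower, shares near or under the 20.6% and 9.54% of all genes, and the median log2 ratio was 0.19, as over all genes. Mcm6, a part of the replicative helicase, was found in 49.9% of the promyelocyte-like barcodes and 36.5% of the Ngp-rich gate after thinning to 5000 UMIs. After thinning to 5000 UMIs, Top2a was found in 56.1% (50.8 to 61.4%) of the promyelocyte-like barcodes, 75.6% of the Ngp-rich gate, 37.7% of the Ly6c2/Ccr2 gate and 14.5% of cartilage. Without thinning the share was 80.9% here and 85.9% in the Ngp-rich gate.

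The phagocyte oxidase, which makes superoxide, and the haem pathway, which supplies the haem of myeloperoxidase, were described as well. Of 6 oxidase genes, Cybb, Ncf1 and Ncf4 were at least 2-fold lower than in the Ngp-rich gate and none was higher (median log2 ratio -1.12). Among all genes, 9.54% were lower and 20.6% higher. Cybb, the catalytic subunit, was at 243.6 against 1599 CPM. Over the 3 Ngp bins it was at 179.3, 203.3 and 418.7 CPM. Of 11 genes of haem and iron, 2 (Alad and Cpox) were higher, near the 20.6% of all genes, and none was lower (median 0.54). Alas1, the first enzyme of haem synthesis outside red cells, was at 273.6 CPM (260.8 to 286.9), 1.45-fold above the Ngp-rich gate and 6.18-fold (5.18 to 7.43) above the Ly6c2/Ccr2 gate.

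Against the Ly6c2/Ccr2 gate, 8.19% of 7604 genes were at least 2-fold higher and 20.6% lower, with a median log2 ratio of -0.17. Of the 13 azurophil genes, 10 were higher, with a median of 4.40, and Lyz2 and Ctsc were lower. Elane and Mpo were among the 10, and the rule's minimum for both bears on the count and the median. Of 6 neutrophil branch genes, 5 were higher and none was lower (median 2.65). Cebpe was at 176.8 CPM against 8.33 CPM. Gfi1 was at 23.4 CPM, with 146 UMIs here and 1 UMI in the Ly6c2/Ccr2 gate. Fcnb (ficolin B, a lectin of the granules) was at 350.2 against 49.0 CPM.

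Of 11 monocyte branch genes, 10 were at least 2-fold lower than in the Ly6c2/Ccr2 gate and none was higher, with a median of -3.23. Among all genes, 20.6% were lower and 8.19% higher. Ly6c2 and Ccr2 are in this list and had chosen that gate. Csf1r, the receptor of macrophage colony-stimulating factor, was at 21.6 against 211.5 CPM, and Ms4a6c, a membrane gene of monocytes, at 51.4 against 552.5 CPM. Ly6c2 itself remained at 775.5 CPM (753.8 to 797.6) against 1363 CPM, and had a UMI in 345 of the 350 barcodes.

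**Figure D4:**
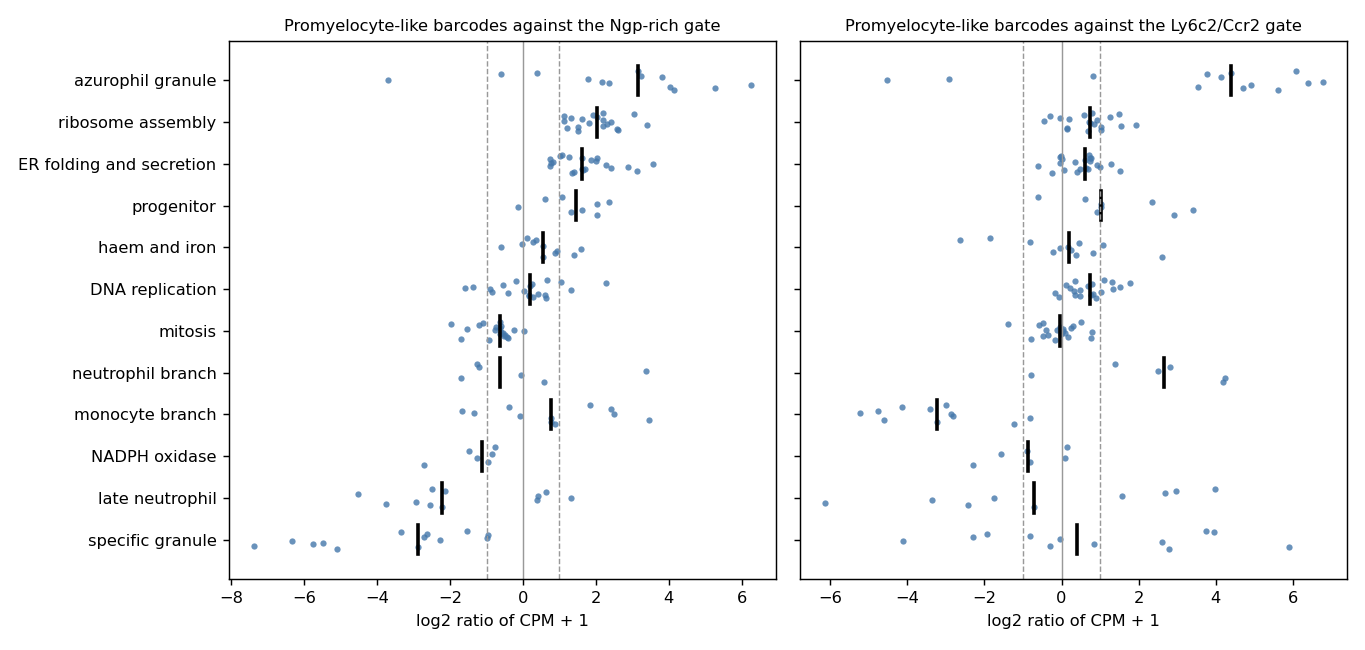
Log2 ratio of CPM plus 1 (x axis) of each gene compared, by gene list (y axis), for the promyelocyte-like barcodes against the Ngp-rich gate (left) and the Ly6c2/Ccr2 gate (right). Points are genes, thick bars are list medians and dashed lines mark 2-fold. The azurophil medians are 3.17 and 4.40 and the specific granule medians are -2.88 and 0.41. Genes of the rule, Elane and Mpo in the azurophil list and Ngp in the specific granule list, are included.

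A small set of 14 barcodes had Irf8 at 2 or more per 10000. They had a median of 23556 UMIs, against 16389 in the other 336, and Scrublet marked none of them. Irf8 chose them, so its own level is not a result. Of 11 monocyte branch genes, Irf8 included, 9 were at least 2-fold higher in the 14 barcodes and none was lower, with a median log2 ratio of 2.33. Among 7313 genes, 11.2% were higher and 5.35% lower, with a median of 0.27.

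In these 14 barcodes, F13a1, the gene of coagulation factor XIII A, was at 214.9 CPM (167.6 to 271.6) against 39.2 CPM in the other 336. Klf4 was at 110.5 against 19.1 CPM, Csf1r at 73.7 against 18.8 CPM, and Ctsc at 479.0 against 102.4 CPM. Of 11 progenitor genes compared, 4 were at least 2-fold higher and none was lower (median log2 ratio 0.86), beside 11.2% and 5.35% of all genes. Cd34 was at 92.1 against 24.3 CPM, Kit at 52.2 against 49.0 CPM and Myb at 132.0 against 121.9 CPM. Of the 13 azurophil genes, 7 were at least 2-fold lower in the 14 barcodes and 1, Ctsc, was higher, with a median log2 ratio of -1.34. Cd63 was 7.25-fold, Nkg7 3.97-fold and Ms4a3 3.35-fold lower, and the other 4 were Elane, Prss57, Serpinb1a and Srgn. Ctsg was at 1802 against 2539 CPM, and Mpo, which the rule used, at 4336 against 4716 CPM. Of 11 specific granule genes compared, 8 were at least 2-fold lower and none was higher, of 8 late neutrophil genes 4 were lower and 1 higher, and of 6 neutrophil branch genes 4 were lower and none was higher. Camp had 7 UMIs (21.5 CPM against 7169 CPM), Cebpe 8 UMIs (24.6 against 185.2 CPM), and S100a9 was at 202.7 against 19173 CPM. Cybb was at 233.4 against 244.2 CPM and Hp at 365.4 against 513.8 CPM, both short of 2-fold. Of 8 B cell genes 5 were compared and 4 were at least 2-fold higher, and the list summed to 208.8 against 81.0 CPM. The UMIs of Cd79a, Vpreb1 and Vpreb3 lay in 1 of the 14 barcodes for each gene, and those of Cd79b, 28 in all, in 10. The part of deeper sequencing or of mixed cells in these values was not tested.

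**Figure D5:**
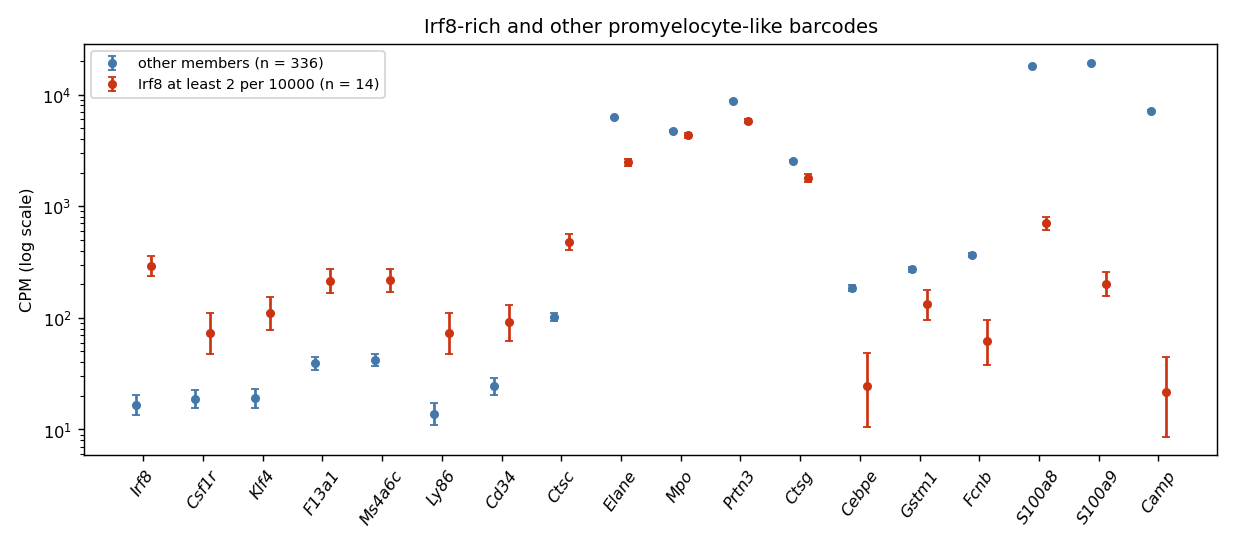
CPM on a log scale (y axis) of 18 genes in the 14 barcodes with at least 2 Irf8 UMIs per 10000 (red) and in the other 336 (blue), with exact Poisson 95% intervals. Monocyte branch genes on the left are higher in red, such as F13a1 at 214.9 against 39.2 CPM, and Camp on the right is at 21.5 against 7169 CPM.

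Across the 350 barcodes, UMIs per 10000 of Elane correlated with those of Prtn3 (Pearson 0.68, Spearman 0.66), and Mpo with Ctsg (0.68 and 0.58). The azurophil genes paired with Camp did not run one way, since Pearson's coefficient with Camp was -0.60 for Ctsg, -0.40 for Mpo, -0.05 for Prtn3, 0.17 for Elane and 0.18 for Ms4a3, and Spearman's -0.56, -0.36, -0.02, 0.16 and 0.13. Both coefficients were negative for Camp with Npm1 (-0.74 and -0.74), and positive for Camp with S100a9 (0.86 and 0.88). These coefficients describe cells of 1 library that share the total in their denominator. The barcodes were chosen by minima of Elane and Mpo and a limit on Ngp, which bears on the coefficients. No conclusion is drawn from them.

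The genes within 100 kb of Elane and of Ctsg were taken from the GENCODE M21 annotation of GRCm38. Around Elane, 18 genes lay between Prss57 and Tmem259, and 4 of them were at 100 CPM or more in these barcodes, namely Prtn3, Elane, Prss57 and Ptbp1, a splicing regulator. Cfd (complement factor D), whose gene follows Elane, had 2 UMIs. Plppr3, the neighbour of Prtn3, was at 31.2 against 4.72 CPM in the Ngp-rich gate, and its span overlaps that of Prtn3. Around Ctsg, which lies among mast cell protease and granzyme genes, 9 of 11 genes had no UMI in the 350 barcodes. Besides Ctsg, only Mcpt8, a protease gene of basophils, was found, with 90 UMIs (14.4 CPM against 0.815 CPM in the Ngp-rich gate and 11.4 CPM in all other barcodes).

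Markers of other cell types were summed per list. All 8 red cell genes were detected and summed to 4054 CPM, against 410797 CPM in the Hba-a1 gate, 10403 in the Ngp-rich gate and 7618 in the Col2a1 gate. Their most abundant gene was Hbb-bs, at 2352 CPM. All 9 skeletal genes were detected and summed to 1086 CPM, with Col2a1 highest, against 64849 CPM in the Col2a1 gate. The limits on Col1a1 and Col2a1 in the rule, and the choice of that gate by Col2a1, bear on this difference. The 8 B cell genes summed to 87.6 CPM, led by Cd79b, against 628.4 CPM over all other barcodes.

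The sums of the other cell type lists were lower than that of the B cell genes. The 6 macrophage genes summed to 32.4 CPM (C1qa highest), the 4 endothelial genes to 31.7 CPM (Pecam1) and the 6 dendritic cell genes to 50.6 CPM (Bst2), with Siglech and Cd209a at 0. The 5 osteoclast genes summed to 19.2 CPM (Acp5), with Calcr and Ocstamp at 0, and the 4 megakaryocyte genes to 5.93 CPM (Pf4). Of the 7 eosinophil genes, which summed to 5.93 CPM (Prg3), Epx, Ear6 and Il5ra were at 0. Of the 5 T and NK cell genes, Cd3g, Ncr1 and Klrd1 were at 0, with 0.320 CPM in all (Cd3d). The 8 basophil and mast cell genes summed to 70.2 CPM, led by the histidine decarboxylase gene Hdc, against 74.6 CPM in the Ngp-rich gate, 33.6 in the Ly6c2/Ccr2 gate and 52.4 in all other barcodes, and Fcer1a, a subunit of the IgE receptor, was at 0.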

How the data were processed

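The authors deposited raw UMI counts of each gene in each barcode. Cell Ranger 3.1.0 was run on mm10 to which tdTomato and WPRE sequences were added. The submitters' processing notes also name Seurat 3. Which annotation release was counted is not given in the sources used. Coordinates came from GENCODE M21 (GRCm38), which 30934 of 31053 gene IDs matched. The other sample of the study was not analysed here, and a count of red cell genes over the Ngp bins is not reported here. The members, the 26 gene lists, the gates and the alternatives were chosen with earlier results of these data known.

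Counts were summed per gate and scaled to CPM, with exact Poisson intervals for levels and Clopper-Pearson intervals for shares (95%). Genes needed 10 CPM in either group to be compared, and 1 CPM was added before log2 ratios. The gates and their overlaps (6 barcodes between the Retnlg and Ly6c2/Ccr2 gates, 12 between the Hba-a1 gate and the others) were kept. Named genes are those of the lists, the 10 with the largest log2 ratios in either direction against the Ngp-rich gate and the 10 highest against the Ly6c2/Ccr2 gate and all others (at least 50 CPM and 100 UMIs, without the genes of the rule), and neighbours of Elane and Ctsg. Cxcl10 was named after its values were seen. Shares after thinning are means over all ways to draw 5000 UMIs from a barcode, computed exactly, and shallower barcodes (1 of the 350) were left out. They replaced a single random draw that had been planned, after that draw gave a share of Top2a far from the mean. Scrublet in scanpy 1.11.5 was run at an expected rate of 10%. Python 3.11.15, numpy 2.4.6, scipy 1.17.1 and pandas 2.3.3 were used. The code that compares gates was checked on simulated Poisson counts, which lack the uneven spread over barcodes seen in these data.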

Additional observations from a re-analysis of the deposited data

Results flagged for a closer look

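A signal of the reporter was seen outside the gene comparisons. The promyelocyte-like barcodes held 131 UMIs of WPRE, the element that follows tdTomato in the reporter transcript, and none of tdTomato itself. These lay in 58 of 350 barcodes (16.6%), with 28 in the highest, and 2 barcodes (0.571%, exact interval 0.0693 to 2.05%) passed a limit of more than 14 UMIs. The study took cells above a WPRE cutoff of 14 as derived from hypertrophic chondrocytes. It gives no unit for that cutoff, so UMIs are an assumption here. Per 1000000 UMIs there were 20.98 of WPRE here, 38.9 in the Ngp-rich gate, 23.9 in the Hba-a1 gate and 70.9 in the Col2a1 gate, where 3.59% of barcodes passed the limit. The part of free RNA and of mixed cells was not tested.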

How the results depend on the processing

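Over 17 alternatives, 10 main results and 78 values of lists and genes were recomputed. No paired analysis was possible because there is 1 library. The median log2 ratios of the azurophil, specific granule and secretory lists against the Ngp-rich gate stayed within the order-statistic interval of the list median, with ranges of 2.70 to 3.64, -3.30 to -2.56 and 1.46 to 1.77. With at most 5% mitochondrial UMIs 191 barcodes remained. Adding 10 CPM before the log changed the genes at least 2-fold higher than in the Ngp-rich gate from 1465 to 853 and the genes at least 2-fold lower than in the Ngp-rich gate from 679 to 369. It changed the genes at least 2-fold higher than in the Ly6c2/Ccr2 gate from 623 to 298 and lowered the ribosome assembly median to 1.46. A minimum of 50 CPM gave 673 and 313 against the Ngp-rich gate, and 209 higher against the Ly6c2/Ccr2 gate, where no minimum gave 1230. The genes at least 2-fold lower than in the Ly6c2/Ccr2 gate numbered 822 at that minimum, in place of 1564. The share with a Top2a UMI was 41.7% after thinning to 3000, 68.5% after 8000 and 80.9% without thinning. The single draw first planned gave 63.0%, and was kept as an alternative added after seeing the data.

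Among list medians of at least 1 in size, 6 values changed sign. Against the Ngp-rich gate, leaving out marked doublets gave 0.68 for B cell and 2.31 for dendritic genes, the mean over barcodes 0.27 for dendritic genes, and a minimum of 50 CPM -0.54 for basophil and mast cell genes. Against the Ly6c2/Ccr2 gate, macrophage genes gave 2.004 with Elane and Mpo at 20 or more and 0.62 without a minimum. Of the values of the main results, 14 were counted as moved and 112 as the same. Of 1000 values of lists and genes, 195 more were counted as moved. Of these, 187 kept their sign and 8, which lay closer to 0, changed it, among them Ltf and Top2a against the Ly6c2/Ccr2 gate. The cause was not tested. A gene with 0 UMIs in the 350 barcodes could still be present below 3 of 6242604 UMIs. All values rest on 1 mouse, and differences between mice cannot be seen.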

Other observations

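Cxcl10, the gene of an interferon-induced chemokine, was at 541.9 CPM (523.8 to 560.5) in the promyelocyte-like barcodes, against 106.2 CPM in the Ngp-rich gate, 129.6 CPM in the Ly6c2/Ccr2 gate and 45.3 CPM in all other barcodes. It had a UMI in 240 of the 350 barcodes (68.6%), with a highest value of 46.4 per 10000, and was at 646.8, 474.0 and 451.5 CPM over the 3 Ngp bins. Vcam1, an adhesion molecule, was at 82.3 CPM (75.4 to 89.8), against 24.6 CPM in the Ngp-rich gate and 1 UMI in the Ly6c2/Ccr2 gate. It was at 60.9, 104.5 and 88.8 CPM over the bins and had 3 UMIs in the 14 Irf8-rich barcodes.

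Hbb-bs, a beta globin gene, was unevenly placed. Of its UMIs in the 350 barcodes, 91.3% lay in 10 barcodes, with 1292 per 10000 in the highest and a median of 1.73 per 10000.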
